A study of Homo sapiens with 3 samples.

Results

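The genes described here are the D-type cyclins *CCND1*, *CCND2* and *CCND3*, the G1 kinases *CDK4* and *CDK6*, and the CDK inhibitors *CDKN1A*, *CDKN1B*, *CDKN1C*, *CDKN2A* and *CDKN2C*, measured in stratified cultures of SV40-immortalized human corneal epithelial (iHCE) cells. Every probe set that names 1 of these genes and no other was kept, which gave 18 of the 22283 probe sets on the HG-U133A array and 9 of the 10 genes. *CDKN2C* had no such probe set in the annotation used and was not analysed here. The iHCE line carries the SV40 large T antigen, and its cells (passages 22 to 23) were grown on collagen-coated filters, for 1 week under medium and then at an air-liquid interface. The medium held 15% serum, 10 ng/ml EGF, 5 µg/ml insulin, 0.1 µg/ml cholera toxin and 0.5% DMSO throughout, with 40 µg/ml ascorbic acid added at the interface stage. RNA from 3 independent culture batches, called cultures 1, 2 and 3, was hybridized to 1 array each, and their electrical resistances were 489, 439 and 468 Ω · cm2. All 3 belong to a single group of a single line, so the values describe levels in the iHCE and their spread between cultures, and no other tissue or condition was compared.

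G1 cyclins, kinases and inhibitors set the pace at which a cell leaves G1 and starts to copy its DNA. D-type cyclins are made in response to mitogens and bind CDK4 or CDK6, and the active kinase phosphorylates the retinoblastoma protein RB, which releases E2F factors that switch on S-phase genes. The INK4 proteins, among them a product of *CDKN2A* and that of *CDKN2C*, bind CDK4 and CDK6 and keep them from the cyclins. The CIP/KIP proteins encoded by *CDKN1A* (p21), *CDKN1B* (p27) and *CDKN1C* (p57) act on cyclin-CDK complexes more broadly. SV40 large T antigen binds RB and p53, and *CDKN1A* is a well-known p53 target. In the cornea, basal cells of the limbus and periphery divide, and their daughters leave the cycle as they move towards the surface.

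Of the 9 measured genes 6 were above background on every array: *CCND1*, *CCND3*, *CDK4*, *CDKN1A*, *CDKN1B* and *CDKN2A*. *CCND2* passed on 1 array, and *CDK6* and *CDKN1C* on none. Values are log2 expression from the RMA algorithm, and a gene was read at its brightest probe set. It was called above background where it exceeded, on each array, the level that 95% of 57 measured genes of other tissues stayed under, which was 6.91, 6.87 and 6.82 in cultures 1, 2 and 3. The same rule called 48.7% of all 11963 measured genes, so 6 of 9 is a count over few genes and is given without a test. Over probe sets it called 7 of the 18, against 40.0% of the 19071 probe sets that name 1 gene. A one-sided moderated test in limma of the mean above the threshold called the same number, 7 probe sets and 6 genes (adjusted p under 0.05), against 38.8% of all probe sets and 47.6% of all genes. Probe sets differ in affinity, so their levels are not compared between genes as amounts.

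**Figure D1:**
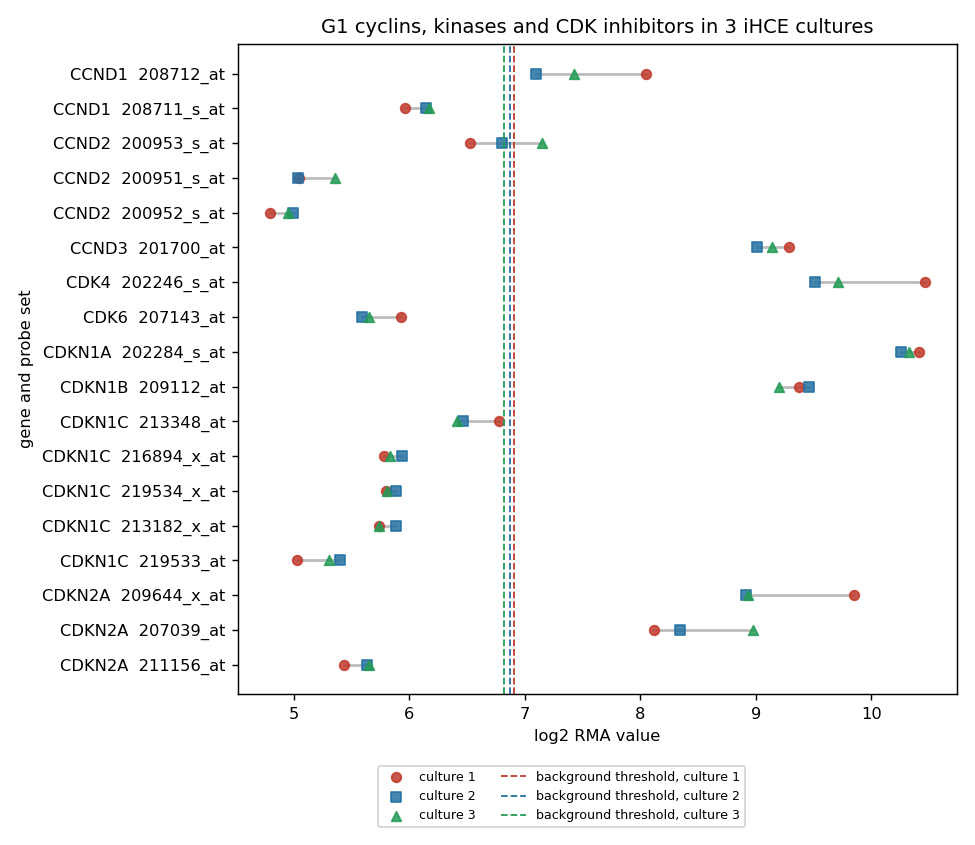
Log2 RMA value of each of the 18 probe sets (rows, by gene) in the 3 iHCE cultures (circles, squares and triangles), with the range as a grey line and the background threshold of each array dashed. The 7 probe sets that lie to the right of all 3 thresholds belong to *CCND1*, *CCND3*, *CDK4*, *CDKN1A*, *CDKN1B* and *CDKN2A*, and *CCND2* 200953_s_at straddles the thresholds.

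The regions before the start sites of 3 of these genes are shown as sequence, and no level, call or spread was computed from them. *CDKN2A* has a pair of alternative starts whose transcripts share later exons and encode unrelated proteins, the INK4a inhibitor and ARF, which stabilises p53. Separately, its probe sets above background placed culture 1 at opposite ends, and a link to the starts was not tested. *CDK4* is a gene that was higher in culture 1, and *CDKN1A* is the one whose level was most even among those above background. Each line gives the 250 bases up to the start on the gene's own strand, from RefSeq (GRCh38.p14), and capitals mark GC boxes, matches to GGGCGG on either strand, which may overlap each other.
*CDKN2A*, INK4a start, chr9:21974858-21975107, minus strand: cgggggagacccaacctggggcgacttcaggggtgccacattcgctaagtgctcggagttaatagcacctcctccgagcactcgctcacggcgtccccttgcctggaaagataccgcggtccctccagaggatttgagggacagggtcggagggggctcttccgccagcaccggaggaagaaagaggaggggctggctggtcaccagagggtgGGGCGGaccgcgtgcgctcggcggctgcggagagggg
*CDKN2A*, ARF start, chr9:21995325-21995574, minus strand: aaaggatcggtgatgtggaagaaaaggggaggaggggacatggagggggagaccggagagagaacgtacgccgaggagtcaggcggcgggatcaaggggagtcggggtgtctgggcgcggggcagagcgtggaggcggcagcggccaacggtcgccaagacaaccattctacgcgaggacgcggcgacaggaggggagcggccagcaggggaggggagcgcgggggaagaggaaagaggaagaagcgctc
*CDK4*, chr12:57752311-57752560, minus strand: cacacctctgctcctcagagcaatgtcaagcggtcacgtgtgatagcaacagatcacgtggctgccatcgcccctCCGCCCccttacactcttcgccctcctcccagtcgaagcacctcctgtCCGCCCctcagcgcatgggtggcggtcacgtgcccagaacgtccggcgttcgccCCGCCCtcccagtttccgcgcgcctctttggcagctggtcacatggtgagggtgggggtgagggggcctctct
*CDKN1A*, chr6:36678464-36678713, plus strand: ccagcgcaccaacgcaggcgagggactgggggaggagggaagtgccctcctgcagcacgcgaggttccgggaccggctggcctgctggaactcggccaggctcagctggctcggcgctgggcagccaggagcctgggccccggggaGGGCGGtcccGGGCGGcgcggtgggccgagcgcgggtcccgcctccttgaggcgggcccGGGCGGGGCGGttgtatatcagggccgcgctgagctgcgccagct
The starts of *CDKN2A* lie 20467 bases apart. The window at its INK4a start held 1 GC box and that at its ARF start 0, against 3 for *CDK4* and 4 for *CDKN1A*. A GC box was found in 42.6% of the 35116 windows of this length in the table. No E2F-type match (TTTGGCGC, TTTGCCGC, TTTCGCGC or TTTCCCGC, either strand) was found in any of the 13 windows that the table gives for 7 of the 10 genes, and 2.79% of all windows held one. These matches describe the letters of the window only.

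Among the D-type cyclins, *CCND3* was far above background and even between the cultures, *CCND1* was low and uneven, and *CCND2* was not called. *CCND3* 201700_at, the only probe set of this gene, read 9.28, 9.01 and 9.14 in cultures 1, 2 and 3. Its mean was 9.14 ± 0.14 (SD, n = 3 cultures), or 2.28 log2 units above the threshold, with a 95% interval of 2.07 to 2.49 (limma, adjusted p = 1.2e-07). Each of the 3 cultures lay more than 2 log2 units above its own threshold.

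*CCND1*, a cyclin gene induced by growth factors, was read by a pair of probe sets that gave different calls. Its 208712_at read 8.05, 7.10 and 7.43, a mean of 7.52 ± 0.48 (SD, n = 3), which is 0.66 above the threshold (95% interval 0.28 to 1.04, limma adjusted p = 0.0060). Culture 1 was the high one, and culture 2 exceeded its threshold by only 0.23. The other probe set, 208711_s_at, read 5.96, 6.14 and 6.17 and was above background on no array, with culture 1 the lowest. The call for *CCND1* was lost with the highest panel value as threshold and with the mean of its probe sets, and with the median of the panel plus 3 scaled MADs its mean minus threshold was -0.058.

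*CCND2* encodes the remaining D-type cyclin. Its 200953_s_at was at 6.53 in culture 1, 6.80 in culture 2 and 7.15 in culture 3, and only culture 3 exceeded its threshold, by 0.33. The mean minus threshold was -0.04 with a 95% interval of -0.36 to 0.28 (limma, adjusted p = 1.0), an interval that spans the threshold. The other probe sets of the gene, 200951_s_at and 200952_s_at, ranged from 4.80 to 5.36 and exceeded background on no array. In 200953_s_at and 200951_s_at culture 3 was the highest.

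Of the kinase partners, *CDK4* was read well above background and *CDK6* was not detected over it. *CDK4* 202246_s_at read 10.46, 9.51 and 9.71 in cultures 1, 2 and 3, a mean of 9.90 ± 0.50 (SD, n = 3) that lay 3.03 above the threshold (95% interval 2.65 to 3.42, limma adjusted p = 7.6e-07). Culture 1 was 0.95 above culture 2 and 0.75 above culture 3, while cultures 2 and 3 were 0.20 apart. *CDK6* 207143_at read 5.93, 5.59 and 5.65, a mean of 5.72 ± 0.18 that was 1.14 under the threshold (95% interval of the difference -1.36 to -0.92). A single probe set stands for *CDK6*, so transcripts it does not bind would not be seen, and a value under the threshold does not show that the gene is silent.

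The CIP/KIP inhibitors *CDKN1A* and *CDKN1B* were among the most even of the G1 genes above background. *CDKN1A* 202284_s_at, for the p53 target p21, read 10.41, 10.26 and 10.32, with a mean of 10.33 ± 0.08 (SD, n = 3) that lay 3.46 above the threshold (95% interval 3.27 to 3.66, limma adjusted p = 1.2e-08). All 3 cultures fell within 0.15 log2 units, and of all probe sets above background 17.6% had a smaller SD. *CDKN1B* 209112_at, for p27, a protein known to rise in resting cells largely through slower degradation, read 9.37, 9.46 and 9.20. Its mean was 9.34 ± 0.13, or 2.48 above the threshold (95% interval 2.28 to 2.68, limma adjusted p = 6.6e-08). Cultures differed by at most 0.26, with culture 3 the lowest.

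*CDKN1C*, an imprinted gene for p57, was above background with none of its 5 probe sets on any array. Its brightest, 213348_at, read 6.77, 6.47 and 6.42, with a mean of 6.55 ± 0.19 (SD, n = 3), 0.31 under the threshold (95% interval of the difference -0.53 to -0.09). Culture 1 came within 0.14 of its threshold. The 3 probe sets marked _x_at, which may bind several related transcripts, lay between 5.74 and 5.94, and 219533_at read 5.02, 5.40 and 5.30. Culture 1 was the highest for 213348_at and the lowest for 219533_at, both read within background.

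*CDKN2A* was clearly above background by 2 of its 3 probe sets, and culture 1 was the highest in one of them and the lowest in the other. Its 209644_x_at read 9.85, 8.91 and 8.93 in cultures 1, 2 and 3, with a mean of 9.23 ± 0.54 (SD, n = 3), 2.37 above the threshold (95% interval 1.96 to 2.77, limma adjusted p = 4.7e-06). Here culture 1 was high and the others lay within 0.02 of each other. This probe set is marked _x_at and may bind several related transcripts. Its 207039_at read 8.11, 8.35 and 8.97, a mean of 8.48 ± 0.44 that was 1.61 above the threshold (95% interval 1.21 to 2.01, limma adjusted p = 4.6e-05). Here culture 1 was the lowest and culture 3 the highest. The third, 211156_at, read 5.43, 5.63 and 5.65 and was above background on no array. Culture 1 minus the mean of cultures 2 and 3 was thus 0.93 for 209644_x_at and -0.55 for 207039_at. Of the 1380 genes with 2 or more probe sets above background, 5 (0.362%) had culture 1 at least 0.5 above the mean of the others in one probe set and at least 0.5 below it in another, and *CDKN2A* is one of these. The pattern was read from *CDKN2A* itself, which at -0.55 lies close to the lower cut, so this share is only a description. Which transcripts from the starts printed above each probe set binds was not tested, and with 1 array per culture no test between cultures was possible.

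**Figure D2:**
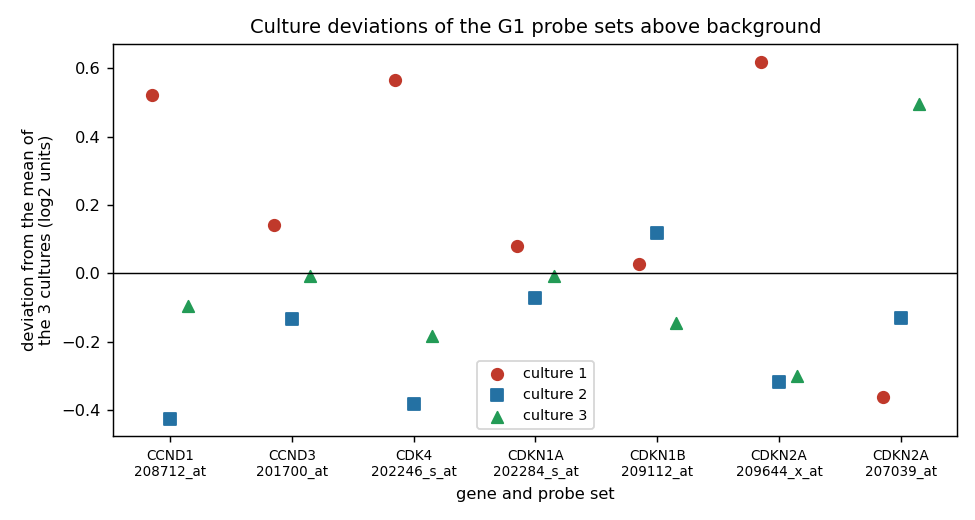
Deviation of each culture from the mean of the 3 cultures, in log2 units, for the 7 probe sets above background (circles culture 1, squares culture 2, triangles culture 3). Culture 1 is the high point for *CCND1* 208712_at, *CDK4* and *CDKN2A* 209644_x_at, and the low point for *CDKN2A* 207039_at, while *CCND3*, *CDKN1A* and *CDKN1B* stay near 0.

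The G1 genes therefore fell into an even set, *CCND3*, *CDKN1A* and *CDKN1B*, with SDs from 0.08 to 0.14, and an uneven set, *CCND1*, *CDK4* and *CDKN2A*, with SDs from 0.44 to 0.54. The split was read from these same values and is a description. The uneven probe sets had a larger SD than 96.8% to 98.4% of all 7620 probe sets above background. The range over the cultures was 0.5 or more in 4 of the 7 G1 probe sets above background, against 17.8% of all such probe sets. The median SD was 0.44 over these 7 and 0.15 over all probe sets above background. Culture 1 was the one apart, farther from the middle value than the culture at the other end, in 5 of the 7, against 50.4% of all. It was apart and higher with a range of 0.5 or more in 3 of the 7 (*CCND1*, *CDK4* and one of *CDKN2A*), against 4.74% of all, and apart and lower with such a range in 0 of the 7, against 8.50% of all. Between cultures 2 and 3 alone, 1 of the 18 G1 probe sets, *CDKN2A* 207039_at, differed by 0.5 or more.

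**Figure D3:**
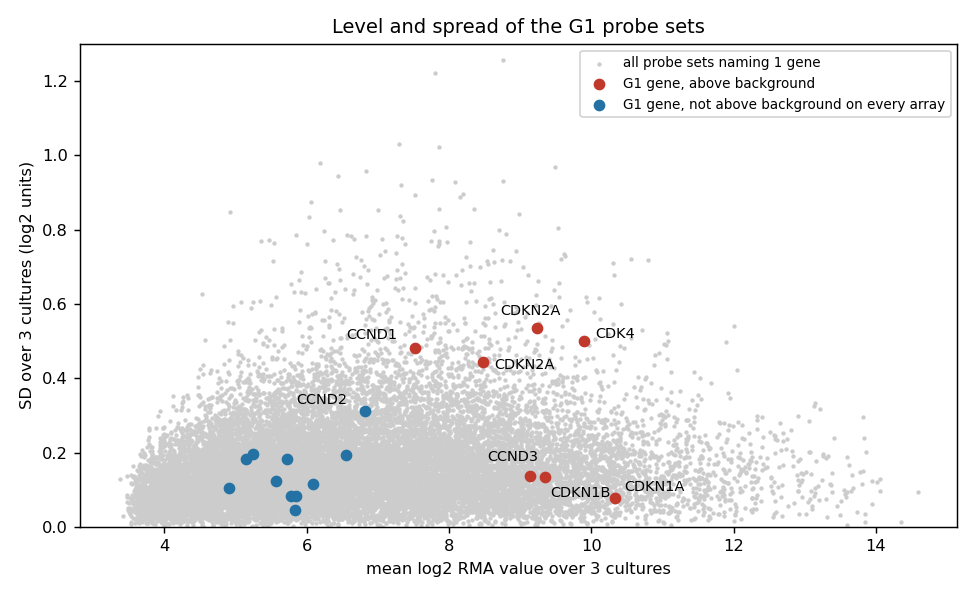
SD over the 3 cultures (log2 units) against the mean log2 RMA value for the 19071 probe sets that name 1 gene (grey), with the 7 G1 probe sets above background in red and the 11 others in blue. *CDKN2A*, *CDK4* and *CCND1* sit at SDs of 0.44 to 0.54, and *CDKN1A*, *CDKN1B* and *CCND3* at 0.08 to 0.14.

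The array of culture 1 stood somewhat apart as a whole. It differed by 1 log2 unit or more from culture 2 at 185 probe sets and from culture 3 at 222, against 13 between cultures 2 and 3. The 3′ minus 5′ difference of the array's RNA quality probe sets ran from 2.99 to 3.25 over the cultures for *ACTB*, highest in culture 2, and was 1.64, 1.34 and 1.28 for *GAPDH* in cultures 1, 2 and 3. The median of the 11 epithelial markers was 10.40, 9.90 and 10.20 in cultures 1, 2 and 3. Of them 7, such as the keratin gene *KRT7* at 11.08, 9.90 and 10.27, were highest in culture 1, against 4870 of all 11963 genes. The simple epithelial genes *KRT7*, *KRT8*, *KRT18* and *KRT19* and the adhesion genes *EPCAM* and *CDH1* were above background. Called on no array were the corneal keratins *KRT3* and *KRT12* and the basal keratins *KRT5* and *KRT14*, and *PAX6* passed on 2. So 6 of 11 epithelial markers were above background, near the 48.7% of all genes, and the defining corneal keratins were not called. Of the markers of keratocytes 0 of 7 were above background, of melanocytes 0 of 4, of immune cells 1 of 5 (*CD74*) and of endothelium 1 of 5 (*TEK*). The genes with the lowest means were *LUM*, *KERA* and *COL3A1* for keratocytes and *TYRP1*, *MLANA* and *PMEL* for melanocytes. For immune cells they were *PTPRC*, *LYZ* and *CD3E*, and for endothelium *KDR*, *VWF* and *PECAM1*. These were picked as the lowest of each list and were called on no array. Of the other genes not above on every array, *COL1A1* and *CD14* passed on 2 arrays and *CDH5* on 1. *DCN*, *COL1A2*, *PDGFRB* and *TYR* passed on none. The medians of these 4 lists in cultures 1, 2 and 3 were 5.87, 5.96 and 5.70 for keratocytes, 5.47, 5.43 and 5.43 for melanocytes, 6.73, 6.21 and 6.62 for immune cells and 5.99, 6.05 and 5.81 for endothelium. The part of these differences between arrays and of the marker levels in the values of *CCND1*, *CDK4* and *CDKN2A* was not tested.

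The other cyclins and kinases of the G1/S step were mostly above background. Of 11 measured genes 9 were, against 48.7% of all genes. Their median was 1.70 log2 units above the threshold, against 0.11 over all genes. The E-type cyclins, which take over from the D-type cyclins at the end of G1, read 8.43 ± 0.12 for *CCNE1* and 8.59 ± 0.26 for *CCNE2* (SD, n = 3), and their kinase *CDK2* read 7.70 ± 0.19. The phosphatase gene *CDC25A*, which activates CDK2, read 8.93 ± 0.20, and *CCNH*, of the kinase that activates the CDKs, 9.44 ± 0.09. *CCNC*, the cyclin gene of the Mediator kinase, read 9.39 ± 0.29. The 2 not above background were *CCNA1* and *CDK8*. Each E-type cyclin and *CDK2* was above background at its brightest probe set. The other probe sets of *CDK2*, with means of 5.05 and 6.28, and of *CCNE2*, with a mean of 5.64, were above it on no array. Of the D-type step *CCND1*, *CCND3* and *CDK4* were above background, while *CCND2* and *CDK6* were not above it on every array.

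The other CDK inhibitors were split, with 1 of 3 above background, against 48.7% of all genes. *CDKN2B*, an INK4 gene that neighbours *CDKN2A* on chromosome 9, read 4.67, 4.79 and 4.85 in cultures 1, 2 and 3, more than 1.9 log2 units under its threshold on each array. *CDKN2D*, also of the INK4 family, read 6.65, 6.53 and 6.66 and was called on no array. *CDKN3*, a phosphatase gene that is highest in dividing cells, read 10.77, 10.61 and 10.92. Of the measured genes around *CDKN2A* on chromosome 9, with *CDKN2B* counted again, 1 of 6 was above background, *KLHL9*, against 48.7% of all genes. These are few genes, listed by their position, and the count is a description. The methionine salvage gene *MTAP* averaged 5.79 ± 0.34 (SD, n = 3) at the brightest of its 5 probe sets, with culture 3 the lowest at 5.40. *ELAVL2* and *IFNA1*, also in this region, averaged 4.76 ± 0.16 and 4.11 ± 0.17, under the threshold on each array.

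Genes of the retinoblastoma and E2F families, on which CDK4 acts, were above background in 8 of 11 cases, against 48.7% of all genes. Their median was 1.15 above the threshold. *RB1* read 7.93 ± 0.10 (SD, n = 3), its relative *RBL2* 8.44 ± 0.15 and the activator *E2F1* 8.30 ± 0.11. The partner gene *TFDP1* read 9.24 ± 0.14 and *E2F4*, a factor of resting cells, 8.78 ± 0.22. *RBL1*, *E2F2* and *E2F5* were called on no array. The SD of *RB1* and *E2F1* was about that of *CDKN1B*, and below that of *CDK4*.

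Genes that turn over G1 regulators were above background in 11 of 12 cases, against 48.7% of all genes. *SKP2*, which marks p27 for degradation, read 8.99 ± 0.12 and its cofactor *CKS1B* 11.04 ± 0.06 (SD, n = 3). *SKP1* and *RBX1*, subunits of the same kind of ubiquitin ligase, read 12.57 ± 0.25 and 10.31 ± 0.19. *FBXW7*, which marks cyclin E, read 6.32, 6.92 and 6.83 in cultures 1, 2 and 3 and exceeded the threshold in cultures 2 and 3 only.

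Of 14 measured mitogen and kinase inputs to G1, 13 were above background, against 48.7% of all genes. Their median was 1.44 above the threshold. *MYC* read 7.90, 8.09 and 8.57 in cultures 1, 2 and 3, and *MAP2K1*, a kinase gene of the ERK pathway, 9.59, 10.20 and 9.87. *FOS*, an immediate early gene, was at 9.32 in culture 1, 10.42 in culture 2 and 8.86 in culture 3. *JUN*, a partner of FOS, averaged 9.05 ± 0.25 (SD, n = 3). Culture 1 was the highest for 1 of the 14 genes, against 4870 of all 11963 genes. The 1 was the ERK kinase gene *MAPK3*, which read 8.65, 8.59 and 8.41. Among the pathway lists such counts ran from 0 of 3 for the other CDK inhibitors to 10 of 16 for the p53 pathway. They were 1 of 11 both for the other G1/S cyclins and kinases and for the TGF-beta, FOXO and KLF inputs. The gene of this list not above background on every array was *IRS1*, above on 2 arrays.

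Of 16 measured genes of the p53 pathway 11 were above background, against 48.7% of all genes. Their median was 1.24 above the threshold. *GADD45A*, which like *CDKN1A* is induced by DNA damage, read 9.11, 9.24 and 9.91, and *CCNG1* read 10.28, 10.00 and 10.22. *TNFRSF10B*, a death receptor gene, averaged 9.50 ± 0.21 (SD, n = 3). *MDM2*, the ubiquitin ligase gene that restrains p53, read 6.17, 5.90 and 6.42 at the brightest of its 5 probe sets and was called on no array. *ZMAT3* and *PPM1D* were also called on no array. The 3 cultures spanned 0.80 for *GADD45A*, with culture 3 the highest, and 0.15 for *CDKN1A*.

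Inputs from TGF-beta, FOXO and KLF factors, which raise CDK inhibitor genes in many epithelia, were above background in 6 of 11 cases. That share is near the 48.7% of all genes. *TGFBR2* read 9.28, 9.99 and 9.95 in cultures 1, 2 and 3 and *SMAD2* 9.61, 9.84 and 9.65, while *SMAD4* read 5.27, 5.96 and 5.98 and *TGFBR1* 4.59, 4.74 and 4.25, both on no array above the threshold. *FOXO3*, whose product raises *CDKN1B*, averaged 9.53 ± 0.15 (SD, n = 3), and the ligand gene *TGFB2* averaged 5.15 ± 0.15 and was called on no array. Regulators of the INK4 genes, such as Polycomb subunits, were above background in 7 of 9 cases, against 48.7% of all genes. *EED* read 10.36 ± 0.15 and *SUZ12* 9.40 ± 0.23 (SD, n = 3), and *ID1*, which restrains INK4a induction, 11.48 ± 0.33. *ETS1*, an activator of INK4a, read 5.88 ± 0.19 and *TBX2*, a repressor of *CDKN2A*, 6.01 ± 0.13, neither called on any array.

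**Figure D4:**
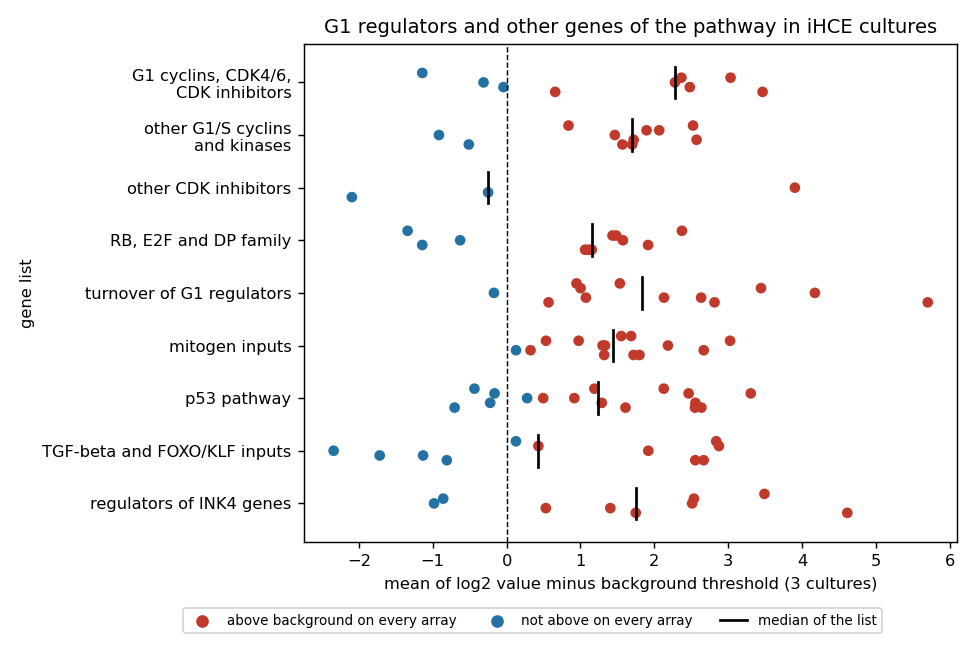
Mean over the 3 cultures of the log2 value minus the array's background threshold (x axis) for each measured gene of the G1 set and of 8 pathway lists (rows), in red where above background on every array and in blue otherwise, with the median of each list as a black bar. The G1 genes have a median of 2.28, with *CDK6*, *CDKN1C* and *CCND2* left of 0.

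Over the 8 pathway lists together 66 of 87 measured genes were above background (75.9%), against 48.7% of all genes, as a description. Neighbours of *CCND1* on chromosome 11 were above background in 3 of 6 cases, *PPFIA1*, *CTTN* and *FADD*, and *CTTN* read 10.22, 9.87 and 10.00 in cultures 1, 2 and 3. *PPFIA1* read 10.52, 10.21 and 10.28, and *FADD* read 8.90, 8.99 and 9.26. At the brightest probe set of each gene, culture 1 was thus the highest for *CTTN* and *PPFIA1* and the lowest for *FADD*. The probe sets of *PPFIA1* differed in this. Culture 1 minus the mean of cultures 2 and 3 was 0.28 at its brightest. It was -0.55, -0.47 and -0.24 at its other probe sets, where culture 1 was the lowest. None of those others was above background on every array. *ANO1*, *FGF3* and *FGF4* were called on no array. Genes around the imprinted *CDKN1C* were above background in 5 of 6 cases, among them *CD81* (10.45, 9.91 and 10.05), the imprinted *PHLDA2* (8.57, 8.55 and 8.79) and *NAP1L4* (8.41, 8.61 and 8.72). *ASCL2*, like *CDKN1C* itself, was called on no array.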

How the data were processed

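Total RNA from 3 independent batches of air-lifted iHCE cultures was hybridized to Affymetrix HG-U133A arrays, 1 per batch. The authors computed expression by RMA in R 2.8.0 (the submitters' processing notes) and deposited log2 values for 22283 probe sets. RMA corrects background, equalises the distributions of the arrays and summarises probes, so total brightness is already removed and low values are compressed. The methods describe normalization together with tissue arrays, and no source used here says whether the deposited table comes from that run. Arrays give no counting depth, and their number, 3, limits the precision.

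Probe sets were named by the platform annotation, with symbols updated through Entrez numbers (RefSeq, GRCh38.p14). Of the probe sets 19071 named 1 gene, 1043 several and 2169 none here. Each gene was read at its brightest probe set on average, which left 11963 genes. The background panel held 67 genes of other tissues, of which 57 were measured and 3 were above background. The means minus threshold were tested one-sided with limma 3.58.1 in R 4.3.3 across all probe sets or all genes, with Benjamini-Hochberg adjustment, and intervals are 95% moderated intervals. Both cover the spread between the 3 arrays but not the uncertainty of the threshold. The test was checked on simulated data. Promoter windows came from the RefSeq table for 7 of the 10 genes. The alternatives were other thresholds (the 90th percentile, the highest value, and the median plus 3 scaled MADs of the panel), the mean over probe sets, no _x_at or _s_at probe sets, quantile normalization, the limma call, and leaving out each replicate.

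The genes and lists were chosen with earlier results of these data known. Named genes were all members, the 3 highest above background and the 3 lowest not above in each list, and a short list of core regulators. Exceptions to a list's count, *MAPK3* and the remaining measured genes of the cell type marker lists were also named, after their values were seen. Listed genes with no probe set of their own were not analysed here.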

Additional observations from a re-analysis of the deposited data

How the results depend on the processing

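With 18 probe sets of 9 genes, 6 genes were above background with the 90th percentile and with each replicate left out. Those settings ease the rule, through a lower threshold or fewer arrays to pass, so they could hardly lose a call. With quantile normalization and with the limma call 6 genes also stayed above background. With the highest panel value, with the median plus 3 scaled MADs and when probe sets were averaged, 5 did. The call lost there was that of *CCND1*, whose mean minus threshold was 0.66 as reported, 0.23 against the highest panel value, 0.20 when its probe sets were averaged and -0.058 with the median plus 3 scaled MADs. Without _x_at and _s_at probe sets, 4 of 8 probe sets were above background, against 7 of 18, and 38 of 56 pathway genes, against 66 of 87, as were 3697 of 8371 genes in all, against 5825 of 11963. This setting removes the only probe sets of *CDK4* and *CDKN1A* and all of *CCND2*, so fewer were tested. The median SD of the G1 probe sets, 0.160 over all 3 cultures, ranged from 0.0736 without replicate 1 to 0.177 without replicate 2. With a replicate left out the SD rests on 2 arrays. Over all probe sets cultures 2 and 3 were also the closest pair, with a median absolute difference of 0.134. It was 0.174 between cultures 1 and 2 and 0.183 between cultures 1 and 3. Leaving out each replicate, with fewer arrays to pass, gave 7 G1 probe sets and 6 genes each time. It gave 66 to 70 pathway genes and 5900 to 6053 genes in all. No paired analysis was possible because all samples belong to 1 group.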
